A study of Homo sapiens with 6 samples.

Results

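The cytosolic ribosomal protein genes were followed in COV434 cells with and without reexpression of BRG1. The members were taken by gene name, as RPL or RPS followed by a number, together with RPLP0, RPLP1, RPLP2 and RPSA, and were then selected on a mean estimated count of at least 1000 over the 6 samples; the S6 kinase genes were excluded. The name pattern matched 86 genes, and 82 of the 19899 genes in the table met the rule, 50 of the large and 32 of the small ribosomal subunit. The mean over all samples chose them, not the difference between groups, but the gene family was picked with earlier results of these data known.

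COV434 is a line established as a granulosa cell tumor and now regarded as SCCOHT, the hypercalcemic small cell ovarian carcinoma. SCCOHT lacks BRG1 (gene SMARCA4), the motor subunit that lets SWI/SNF complexes move nucleosomes. The 3 Control samples carried a control plasmid, given in the study's methods as pCMV-neo or pCDNA3-neo. The 3 BRG1 samples carried PBJ5-BRG1, and each plasmid was cotransfected with pBABE-puro. Cells of both groups received puromycin at 2 to 3 µg/ml from 24 hours after transfection and for 3 days, so both were transfected and drug selected, and no sample of untransfected cells was analysed here. RNA (500 ng a library) was sequenced in 78-base read pairs without strand information. The labels number the samples 1 to 3 in each group and do not say whether they came from separate cultures, so p-values measure the spread between these samples.

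Total estimated counts ran from 29699741 (BRG1 replicate 3) to 63613710 (BRG1 replicate 1). SMARCA4 rose from 1551 ± 119 to 88773 ± 17220 normalised counts (mean ± SD, n = 3), vector transcripts included. The mitochondrially encoded genes took 5.18 to 6.0% of counts in Control and 4.13 to 4.61% in BRG1 samples. Of the granulosa markers, FOXL2 and FSHR lay at or near 0 in every sample, and the summed level of the 5 was 291 to 470 normalised counts in Control and 638 to 920 in BRG1, with CYP19A1 called higher (23.3 ± 8.03 to 322 ± 116). The 5 epithelial markers summed to 30.3 to 108 and 496 to 1643 with 2 called higher (KRT8 and KRT18; KRT19 and EPCAM at or near 0), the 5 endothelial markers to 1731 to 2641 and 6422 to 6839 with 3 called higher (CDH5, VWF and TEK), and the 5 fibroblast markers to 5235 to 8743 and 4164 to 9303 with none called. Of blood markers, HBB was called higher (1.95 ± 0.63 to 32.5 ± 5.57), CD68 was called higher with the replicate block alone (1736 ± 700 to 2757 ± 812), PTPRC was not called (505 ± 167 and 520 ± 185) and CD3E lay at or near 0. Over all 16002 genes tested, DESeq2 called 11.0% higher. The part of these marker shifts in the results on ribosomal protein genes was not tested.

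The ribosome builds proteins from a small subunit, which reads the mRNA, and a large subunit, which forms peptide bonds; each is a core of ribosomal RNA clothed in many proteins, nearly all made from a gene of its own. The mRNAs of these proteins are among the most abundant in dividing cells, and their first bases are typically a cytidine and a run of further pyrimidines, the 5′ terminal oligopyrimidine (TOP) motif, through which mTORC1 and LARP1 control their translation and stability. A few members have a second, differently regulated copy (a paralog) elsewhere in the genome, such as RPL22L1 for RPL22.

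The start sites of members that the results turn on are shown from 10 bases before to 19 after the annotated start base, with the unbroken run of C and T that begins at the start base in capitals. They are shown to set members that fell strongly, 4 with a long run and 3 with a short run or none, beside 3 parent genes and their paralogs. The windows are RefSeq's in GRCh38.p14 and each line is read 5′ to 3′ on the strand of the gene.
RPS3A: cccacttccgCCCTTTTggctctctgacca
RPS6: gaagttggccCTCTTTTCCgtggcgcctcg
RPLP0: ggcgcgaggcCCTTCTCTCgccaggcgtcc
RPL21: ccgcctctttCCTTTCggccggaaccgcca
RPL6: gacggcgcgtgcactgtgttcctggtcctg
RPS7: cgccctcctcCTCgcgctgtttccgcctct
RPL9: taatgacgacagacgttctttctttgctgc
RPL22: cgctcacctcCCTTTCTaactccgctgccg
RPL22L1: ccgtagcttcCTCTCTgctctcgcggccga
RPL26: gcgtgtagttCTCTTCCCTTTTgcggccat
RPL26L1: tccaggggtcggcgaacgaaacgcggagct
RPS27: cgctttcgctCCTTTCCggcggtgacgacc
RPS27L: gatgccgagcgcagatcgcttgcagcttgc
These lie at chr4:151099618-151099647 (+, RPS3A), chr9:19380217-19380246 (-, RPS6), chr12:120201092-120201121 (-, RPLP0), chr13:27251548-27251577 (+, RPL21), chr12:112409266-112409295 (-, RPL6, with another annotated start elsewhere that has a run of 1), chr2:3575250-3575279 (+, RPS7), chr4:39458903-39458932 (-, RPL9), chr1:6199576-6199605 (-, RPL22), chr3:170870176-170870205 (-, RPL22L1), chr17:8383174-8383203 (-, RPL26), chr5:172958719-172958748 (+, RPL26L1, the first of 2 annotated starts), chr1:153990752-153990781 (+, RPS27) and chr15:63157458-63157487 (-, RPS27L). Each window holds the end of the promoter and the first bases of the 5′ untranslated region. The runs are 7 bases long in RPS3A, 9 in RPS6 and RPLP0, 6 in RPL21, 3 in RPS7, 7 in RPL22, 6 in RPL22L1, 12 in RPL26 and 7 in RPS27, and RPL6, RPL9, RPL26L1 and RPS27L have none.

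Ribosomal protein genes were lower with BRG1, in both subunits. Of the 82, 49 were called lower at a DESeq2 adjusted p under 0.05 and 0 were called higher, beside 1.84% of the 16002 genes tested called lower and 11.0% called higher. The share called lower was 54.0% of the large subunit genes (27 of 50) and 68.8% of the small subunit genes (22 of 32). At an unadjusted p under 0.05, 0 members were higher in DESeq2 and 0 in edgeR. The members made up 16.7% of all 294 genes called lower. In bulk RNA fewer cells of a kind and less RNA a cell cannot be told apart.

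The median log2 fold change of the members was −0.43, so that the median member fell by 25.9%, and the middle 50% of them lay between −0.57 and −0.32. Across all genes tested the median was −0.01. Over the 7615 other genes with a mean of at least 1000 it was −0.06, with quartiles of −0.19 and 0.1, and 2.67% of those genes were called lower. The log2 fold change was below 0 in 81 of the 82 members, with a range from −0.84 (RPL5) to 0.14 (RPL26L1).

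edgeR called 41 members lower (22 large, 19 small) beside 0.984% of the 14225 genes it tested, and each of the 41 was also called by DESeq2. Blocked on the replicate number, DESeq2 called 67 lower (39 large, 28 small) beside 6.61% of genes, and edgeR called 58 (32 large, 26 small) beside 5.5%; the 49 calls without the block were all among the 67. In these 4 fits 41 members were called lower each time and 15 never. The count rested in part on single samples: it was 27 without Control replicate 2, 29 without BRG1 replicate 2 and 60 without BRG1 replicate 3, and that of the large subunit was 13 without either of the first 2.

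**Figure D1:**
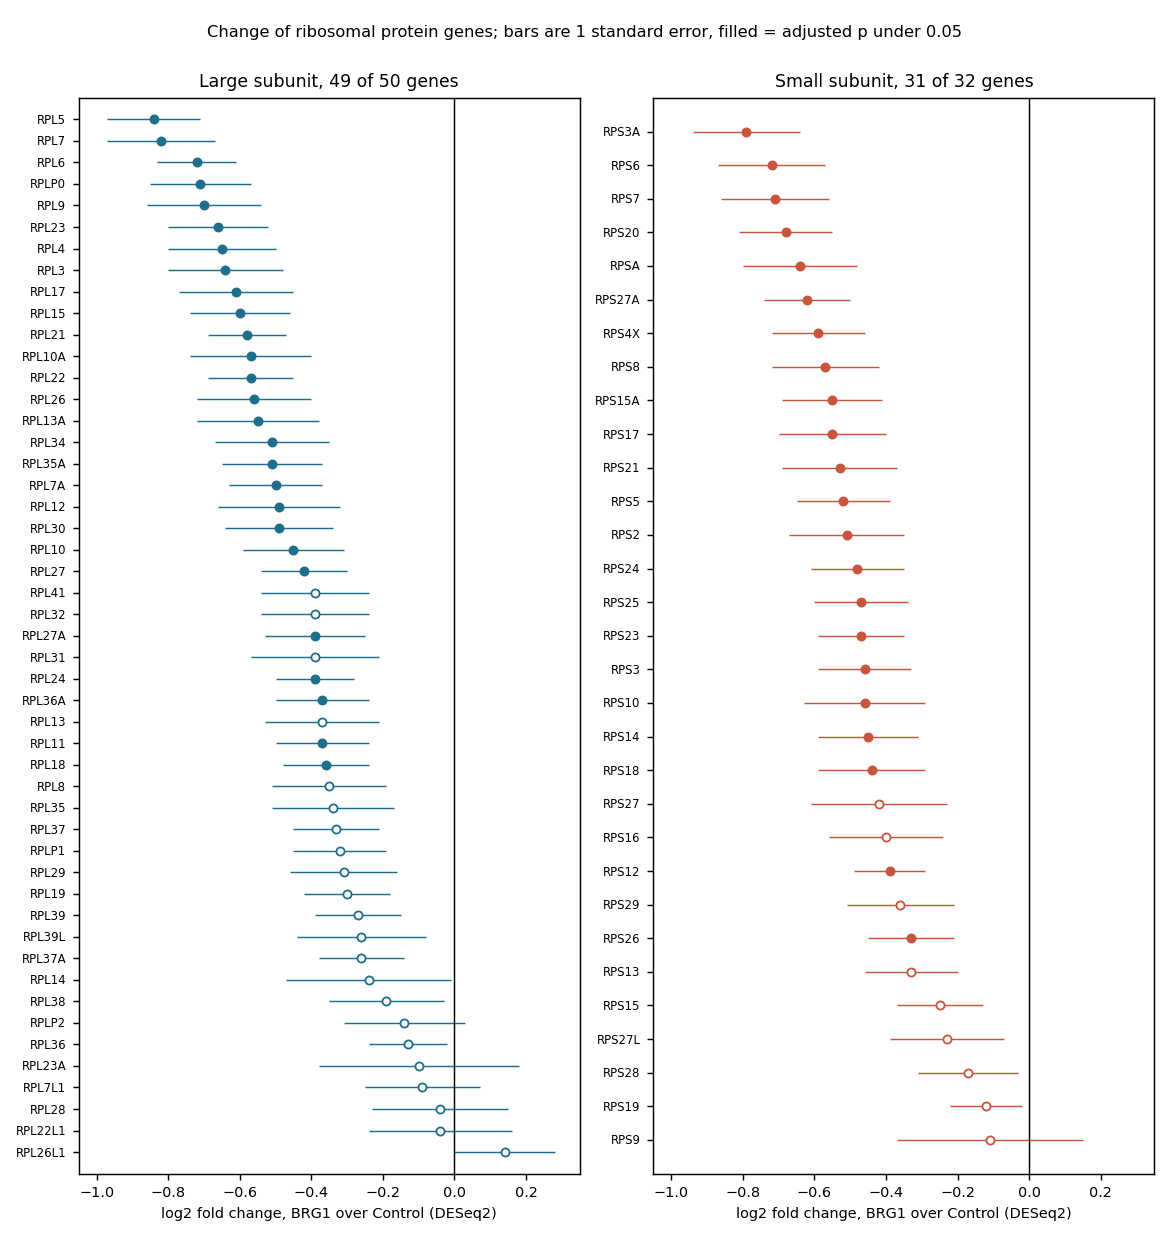
Log2 fold change (BRG1 over Control, DESeq2) of 49 of the 50 large subunit and 31 of the 32 small subunit genes, with bars of 1 standard error and filled points for an adjusted p under 0.05. All points but that of RPL26L1 (0.14) lie left of 0, and RPL5 (−0.84) and RPS3A (−0.79) lie farthest left in their panels.

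The groups did not overlap for most members. All 3 BRG1 samples lay below all 3 Control samples in 67 of the 82 genes, 38 of the large and 29 of the small subunit, beside 9.92% of the genes tested, and in 0 members did they lie above. Samples with the same number were also compared with each other. BRG1 was lower in 79 members within replicate 1, in 78 within replicate 2 and in 79 within replicate 3, with median log2 ratios of −0.43, −0.6 and −0.32. In 74 members it was lower within all 3. BRG1 replicate 3 had the highest value of its group in 63 members and BRG1 replicate 2 the lowest in 47, whereas in Control replicate 2 was highest in 57 and replicate 1 lowest in 57.

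In total the 82 genes took 10.1, 10.7 and 10.4% of all estimated counts in Control replicates 1 to 3. They took 7.26, 7.2 and 8.59% in the BRG1 samples. The groups did not overlap, and the means were 10.4 ± 0.297% and 7.69 ± 0.785% (SD, n = 3), a difference of −2.74 percentage points. With mitochondrially encoded genes left out of the total, the means were 11.0 and 8.03%.

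The large subunit genes took 6.14, 6.46 and 6.28% of counts in Control and 4.44, 4.35 and 5.19% in BRG1 samples. The small subunit genes took 3.98, 4.25 and 4.16%, then 2.83, 2.85 and 3.4%. The median log2 fold change was −0.39 for the large and −0.47 for the small subunit, a gap of 0.07. On the scale of mean log2 normalised counts, the large minus the small subunit came to −0.172, −0.215 and −0.218 in Control and to −0.119, −0.149 and −0.166 in BRG1. The BRG1 values of this difference lay above those of Control, but the nearest, −0.166 in BRG1 replicate 3 and −0.172 in Control replicate 1, nearly met. The large subunit mean includes the paralogs RPL7L1 (log2 fold change −0.09), RPL22L1 (−0.04), RPL26L1 (0.14) and RPL39L (−0.26). The small subunit mean includes RPS27L (−0.23) alone. The part of these paralogs in the difference was not tested, so it is no measure of a shift in subunit balance.

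**Figure D2:**
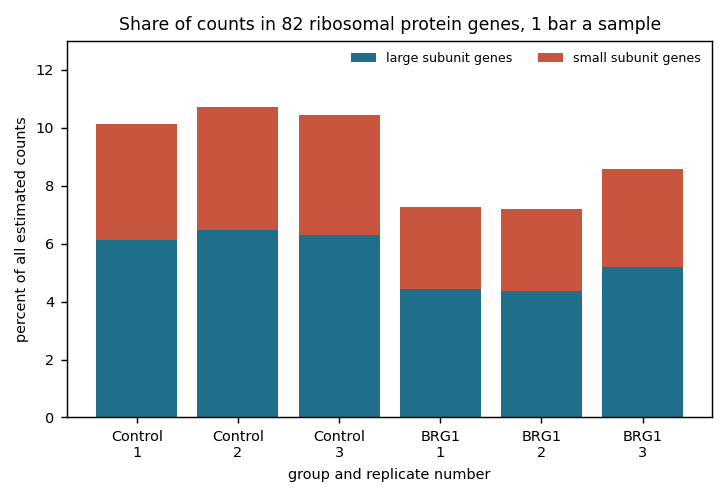
Percent of all estimated counts in the ribosomal protein genes of each sample, stacked by subunit. The 3 Control bars reach 10.1 to 10.7% and the 3 BRG1 bars 7.2 to 8.59%, with BRG1 replicate 3 the highest of its group.

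The 6 members with the lowest fold changes were RPL5, RPL7, RPL6 and RPLP0 of the large and RPS3A and RPS6 of the small subunit. RPL5 (ENSG00000122406.14, chr1:92832013-92841924) encodes a protein that, with RPL11, carries the smallest ribosomal RNA of the large subunit and can bind the p53 regulator MDM2. Its normalised counts were 66798, 73810 and 72995 in Control and 36885, 38296 and 43775 in BRG1 samples. The groups lay far apart, and RPL5 fell by 44.3% (log2 fold change −0.84 ± 0.13 SE, adjusted p = 5.5e-09 by DESeq2 and 0.00184 by edgeR). RPL11, its partner, had 64792, 56935 and 55744 in Control and 48561, 44104 and 44185 in BRG1 samples. RPL11 fell by 22.9%, again without overlap (−0.37 ± 0.13, adjusted p = 0.0321 by DESeq2), but was not called by edgeR (adjusted p = 0.0533).

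RPL6 (ENSG00000089009.16, chr12:112405189-112418838), a large subunit protein, had the smallest p of all members. Its counts of 67689, 68952 and 65603 in Control stood against 40479, 39547 and 42682 with BRG1, with little spread in either group. RPL6 fell by 39.3% (−0.72 ± 0.11, adjusted p = 2.57e-10 by DESeq2). RPL7, another large subunit protein, had 80582, 88338 and 91054 in Control and 45027, 45475 and 56429 in BRG1 samples. RPL7 fell by 43.5% (−0.82 ± 0.15, adjusted p = 1.24e-06 by DESeq2). RPL21 fell by 33.2% (−0.58 ± 0.11, adjusted p = 6.9e-07 by DESeq2), from 50302 ± 1177 to 33604 ± 1332, and has 133 annotated pseudogenes under its name, the most of any member.

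In the small subunit RPS3A (ENSG00000145425.10, chr4:151099624-151104642), a protein near the mRNA exit, was lowest. Counts were 99565, 113310 and 105726 in Control and 57466, 56185 and 70614 with BRG1. The groups did not overlap and RPS3A fell by 42.2% (−0.79 ± 0.15, adjusted p = 3.59e-06 by DESeq2). RPS6 (ENSG00000137154.13, chr9:19375715-19380236), the protein that S6 kinases phosphorylate downstream of mTORC1, had 115187, 133245 and 125633 in Control and 69804, 71193 and 86666 in BRG1 samples. RPS6 fell by 39.1% (−0.72 ± 0.15, adjusted p = 3.33e-05 by DESeq2). RPS27A, made as a fusion with ubiquitin, fell by 34.8% (−0.62 ± 0.12, adjusted p = 1.69e-06 by DESeq2) from 52976 ± 2412 to 34517 ± 1811, and RPS20 fell by 37.4% (−0.68 ± 0.13, adjusted p = 2.29e-06 by DESeq2).

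The stalk, which recruits and activates the translational GTPases, is made of RPLP0 with dimers of RPLP1 and RPLP2, and its genes had unequal values. RPLP0 (ENSG00000089157.16, chr12:120196699-120201235) had 157093, 166333 and 150738 in Control and 93743, 87916 and 107689 with BRG1, and fell by 39.0% (−0.71 ± 0.14, adjusted p = 4.15e-06 by DESeq2). RPLP1 had 53031, 46740 and 46461, then 39478, 40948 and 36469, without overlap (−0.32 ± 0.13). RPLP1 missed the threshold (adjusted p = 0.08 by DESeq2) and passed it with the replicate block (0.0041 by DESeq2, 0.0404 by edgeR). RPLP2 had 29008, 24069 and 21472 in Control and 24267, 23458 and 20051 with BRG1, and these overlapped (−0.14 ± 0.17, adjusted p = 0.777 by DESeq2).

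The smallest standard errors were those of RPS12 and RPS19. RPS12 had 42152, 41169 and 38918 in Control and 31272, 31312 and 30484 with BRG1, and fell by 23.9% (−0.39 ± 0.1, adjusted p = 0.00204 by DESeq2). RPL24, of the bridge between the subunits, fell by 23.8% (−0.39 ± 0.11, adjusted p = 0.00255 by DESeq2). RPS19, the protein most often mutated in Diamond-Blackfan anemia, had 69057, 66697 and 66557, then 64082, 61221 and 61159. These did not overlap, but the difference of −0.12 ± 0.1 did not pass the test (adjusted p = 0.618 by DESeq2). RPS19 was called lower once GC content and length were corrected together with the replicate block (−0.27, adjusted p = 0.00405 by DESeq2).

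**Figure D3:**
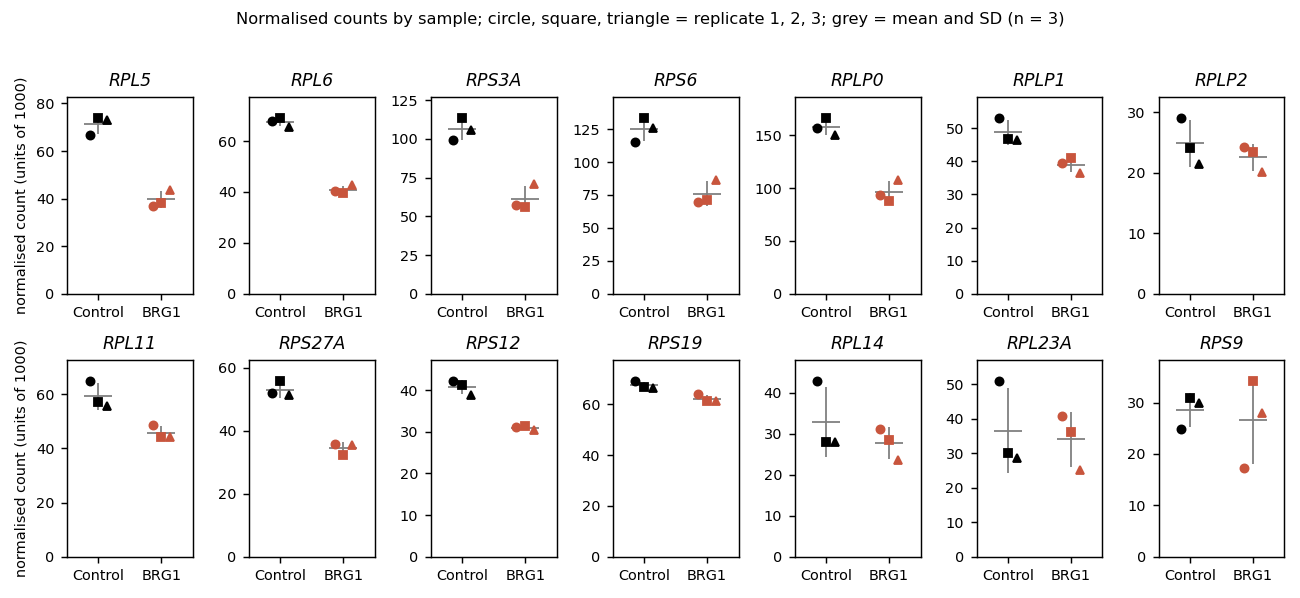
Normalised counts (in units of 1000, axes from 0) of 14 members in each sample, by replicate number, with the mean and SD of each group. RPL5, RPL6, RPS3A, RPS6 and RPLP0 separate the groups widely, RPLP2, RPL14, RPL23A and RPS9 do not, and in RPL14 and RPL23A Control replicate 1 stands above the other Control samples.

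A total of 33 members were not called lower by DESeq2, 23 of the large and 10 of the small subunit. With the replicate block 18 of them were called by DESeq2, 12 large and 6 small, among them RPL8, RPL13, RPL19, RPL29, RPL31, RPL32, RPL35, RPL37, RPL37A, RPL39, RPL41, RPLP1, RPS13, RPS15, RPS16, RPS27 and RPS29. Their log2 fold changes ran from −0.42 to −0.25. The other 15 were called in none of the 4 fits. Those in the large subunit included RPL14, RPL23A, RPL28, RPL36, RPL38, RPLP2, RPL39L, RPL7L1, RPL22L1 and RPL26L1. Those in the small subunit were RPS9, RPS19, RPS28 and RPS27L.

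The members with the largest standard errors were among these 15. RPL23A, near the exit of the peptide tunnel, had 50844, 30115 and 28649 in Control and 40731, 36110 and 25226 with BRG1 (−0.1 ± 0.28, and 0.21 without Control replicate 1). RPL14 had 42783, 27999 and 27932, then 31153, 28576 and 23569 (−0.24 ± 0.23). RPL28 had 33472, 25605 and 25928, then 30368, 29243 and 22867 (−0.04 ± 0.19). In all 3 genes Control replicate 1 was the highest of the 6 samples, and BRG1 replicate 1 was the highest of its group. Control replicate 1 stood at least 1.2-fold above the mean of the other Control samples in 5 members, by 1.73-fold in RPL23A, 1.53-fold in RPL14, 1.3-fold in RPL28 and 1.27-fold in RPL38 and RPLP2. RPS9 differed in another way, with 24882, 30919 and 29832 in Control and 17362, 34149 and 28041 with BRG1 (−0.11 ± 0.26), so that BRG1 samples gave both its lowest and its highest value.

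The 5 members that are paralogs of another member were called in none of the 4 fits (RPL39L was called lower once GC content and length were corrected together with the block, −0.46, adjusted p = 0.00731 by DESeq2), whereas 3 of the 5 parents (RPL7, RPL22 and RPL26) were called lower by DESeq2 and the others (RPS27 and RPL39) were not. RPL22L1 had 5789, 9085 and 6984 normalised counts in Control and 6394, 7323 and 7606 with BRG1 (−0.04 ± 0.2), a direction that turned with the GC and length correction (0.25) and with total counts (0.02). RPL22, its parent, fell by 32.7% (−0.57 ± 0.12, adjusted p = 6.58e-05 by DESeq2). RPL26L1 had 3429, 3730 and 3583 in Control and 4418, 3723 and 3707 with BRG1 (0.14 ± 0.14), and RPL26 fell by 32.3% (−0.56 ± 0.16, adjusted p = 0.004 by DESeq2). RPL7L1, whose protein acts in the making of the large subunit, had 11450, 9942 and 12086, then 10451, 9324 and 11685 (−0.09 ± 0.16). RPS27L, a p53 target, had 19144, 24405 and 21451, then 16621, 18882 and 20102 (−0.23 ± 0.16), and its parent RPS27 had −0.42 ± 0.19, called with the replicate block by DESeq2 (adjusted p = 0.00957) and not by edgeR (0.0584).

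A ratio of paralog to parent within a sample does not depend on the scaling between samples. It can depend on GC content and length, and the ratios were not recomputed with that correction. With it, the log2 fold changes of paralog and parent were −0.1 and −0.59 for RPL7L1 and RPL7, and 0.14 and −0.51 for RPL26L1 and RPL26. They were 0.25 and −0.38 for RPL22L1 and RPL22, and −0.1 and −0.46 for RPS27L and RPS27. The log2 ratio of RPL7L1 to RPL7 was −2.82, −3.15 and −2.91 in Control and −2.11, −2.29 and −2.27 with BRG1. That of RPL26L1 to RPL26 was −4.61, −4.72 and −4.71, then −3.71, −3.93 and −4.28, and that of RPL22L1 to RPL22 was −2.52, −1.9 and −2.18, then −1.82, −1.47 and −1.64. In these 3 pairs and in RPS27L to RPS27 each BRG1 sample lay above each Control sample, and the mean ratio was higher by 0.74, 0.71, 0.56 and 0.2 (log2). The last fell to 0.09 without BRG1 replicate 2. The exact two-sided permutation test, which ignores the replicate numbers, gave p = 0.1 for each of the 4. That is the smallest that 3 samples against 3 allow, or 0.2 after Benjamini-Hochberg adjustment over the 8 pairs measured. With samples kept in pairs by number, the exact test gave p = 0.25 for each, the smallest that this pairing allows. So none passed 0.05, which this design cannot reach.

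For RPL36AL to RPL36A the ratio differed by 0.17 (exact permutation p = 0.4), and by 0.06 without BRG1 replicate 1. For RPL39L to RPL39 it was −4.07 ± 0.07 in Control and −4.07 ± 0.14 with BRG1 (SD, n = 3; exact permutation p = 1.0), and the log2 fold changes of the paralog and its parent, neither called by DESeq2, were −0.26 ± 0.18 and −0.27 ± 0.12. The ratios of RPL3L to RPL3 and of RPL10L to RPL10 shifted by 0.13 and −0.1 (exact permutation p = 0.8 and 0.5), and the former was −0.33 without Control replicate 2 and −0.31 without BRG1 replicate 1.

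**Figure D4:**
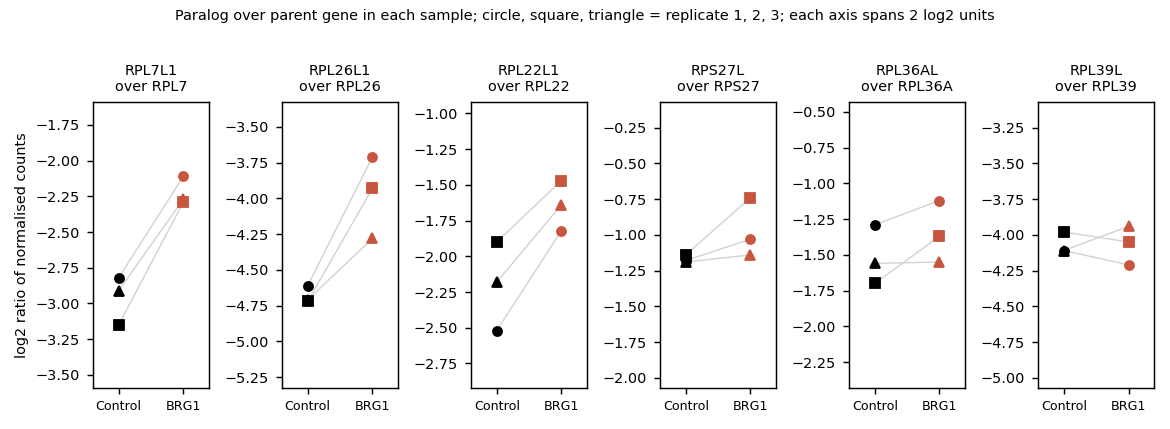
Log2 ratio of paralog to parent gene in each sample for the 6 pairs whose paralog has a mean of at least 1000, with lines joining samples of the same number. In RPL7L1, RPL26L1, RPL22L1 and RPS27L all BRG1 points lie above all Control points, and in RPL39L they overlap around the same mean of −4.07.

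The rule's limit of 1000 fell in a wide gap. Just inside were RPL39L (mean 1573), RPL26L1 (3964), RPL22L1 (7408), RPL7L1 (11217) and RPS26 (13173), and just outside were RPL10L (90.1) and RPL3L (10.2), paralogs named above, with RPS4Y1 and RPS4Y2 listed at 0. RPS26, which contacts the mRNA, fell by 20.5% (−0.33 ± 0.12, adjusted p = 0.0481 by DESeq2), but was not called by edgeR (adjusted p = 0.0808). The DESeq2 call was lost with total counts (adjusted p = 0.141) and whichever sample was left out. With the replicate block both tools called RPS26 lower (adjusted p = 0.000924 by DESeq2 and 0.0222 by edgeR).

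The start windows covered 66 of the 82 members. At any annotated start, 47 of these 66 (71.2%) had a C as the first base within a run of at least 5 pyrimidines, beside 6.92% of the 11940 tested genes with a window. The run was found in 46 of 62 members that are no paralogs and in RPL22L1 alone among the 4 paralogs with a window (RPL22L1, RPL26L1, RPL7L1 and RPS27L). A start annotated a few bases off misses a run, as it can in RPL9, where pyrimidines begin shortly after the annotated base. The median log2 fold change was −0.4 in the 47 members with the run (28 called lower by DESeq2) and −0.42 in the 19 without (11 called lower).

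In the windows, from 250 bases before the start to 50 after it, the letters CCGGAA of the ETS factors' site stood on either strand in 57.6% of the members and in 30.6% of all genes with a window. AAGATGGC, the site of YY1, stood in 10.6 and 5.58%, GGGCGG, a GC box, in 57.6 and 72.9%, TATAAA in 9.09 and 10.0%, and TGANTCA, the AP-1 site, in 3.03 and 7.63%. These are matches of letters and not sites of binding.

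Members lay on 21 chromosomes. Across members, which share their libraries, the log2 fold change had a Spearman rho of −0.58 with the mean count and 0.3 with the GC content of the canonical transcript. With the transcript's length rho was 0.02, and with the number of annotated pseudogenes −0.46. Among other genes with a mean of at least 1000, rho was −0.02 with the mean count, 0.12 with GC content and 0.13 with length. After a correction of each sample for GC content and length, fitted on genes that are no members, the median log2 fold change was −0.47, 55 members were called lower by DESeq2, and rho with GC content was −0.19. Members have 1600 annotated pseudogenes of any type under their names (median 12.5 a gene). Their likeness to the members in sequence was not measured. The estimate of counts may divide reads among such copies, so single values of genes such as RPL21 are uncertain to that extent.

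Other genes of the ribosome and of translation were set beside the members in lists of textbook roles. FAU and RACK1, ribosomal components outside the name pattern, were called lower by DESeq2, with log2 fold changes of −0.39 and −0.33, and by edgeR neither was. Of 13 other mRNAs known to carry the TOP motif, 9 were called lower and 0 higher by DESeq2 (9 lower by edgeR, 11 with the block by each tool), with a median of −0.5. Over all genes tested the shares called lower were 1.84% by DESeq2 and 0.984% by edgeR, and 6.61 and 5.5% with the block. EEF1A1, which brings aminoacyl-tRNA to the ribosome, had 834145, 867374 and 871161 normalised counts in Control and 559244, 490376 and 615658 with BRG1 (−0.63 ± 0.14). EIF3E, an initiation factor subunit, fell by 0.72 on the log2 scale, EEF1B2, an exchange factor, by 0.73, and EEF2, the translocase, by 0.66. After the GC and length correction EIF3E stood at −0.31 and was not called (adjusted p = 0.0782 by DESeq2). PABPC1, the poly(A)-binding protein, did not pass the test (−0.07 ± 0.18, adjusted p = 0.926 by DESeq2).

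Of 42 genes that build ribosomes, 4 (9.52%) were called lower by DESeq2 and 0 higher, beside 1.84% of all genes and 2.67% of the other genes with a mean of at least 1000. These were NPM1 (−0.45), FBL (−0.56), which methylates ribosomal RNA, WDR12 (−0.5) and NSA2 (−0.45). After the GC and length correction NPM1 (−0.26, adjusted p = 0.187 by DESeq2), WDR12 (−0.3, 0.108) and NSA2 (0.1, 0.765) were no longer called. The median of the 42 was −0.1. Of 11 genes of RNA polymerase I and its factors only POLR1D (9.09% of the list) was called (−0.34, not by edgeR), with a median of −0.03. Of the 77 genes of the mitochondrial ribosome, whose mRNAs generally lack the TOP motif, 1 (1.3%) was called lower by DESeq2 (MRPS27, −0.53), and their median was −0.1 as well. The median of the other genes with a mean of at least 1000 was −0.06.

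Among 16 regulators of TOP mRNAs and of ribosome production, 0 were called lower and 2 higher by DESeq2, beside 1.84 and 11.0% of all genes tested. With the replicate block MLST8, a subunit of mTORC1, was called lower (−0.33, adjusted p = 0.0179 by DESeq2 and 0.0361 by edgeR), but not once GC content and length were also corrected. MYCN rose from 6.37 ± 4.37 to 372 ± 239 normalised counts (log2 fold change 5.94 ± 0.62, adjusted p = 6.37e-20 by DESeq2 and 0.0012 by edgeR), and DEPTOR, an inhibitor of mTOR, from 124 ± 1.51 to 238 ± 100.1 (0.95 ± 0.34, adjusted p = 0.0441 by DESeq2, not called by edgeR at 0.137). MYC had 10422, 11425 and 6186 in Control and 12035, 14215 and 7645 with BRG1, which overlapped (0.27 ± 0.3) and was called higher with the replicate block by DESeq2 alone (adjusted p = 0.0127). MTOR (0.09 ± 0.18) and LARP1 (0.01 ± 0.12) did not pass the test. After the GC and length correction they stood at −0.19 and −0.25, and with the block added LARP1 was called lower (adjusted p = 0.0108 by DESeq2). Of 11 p53 targets, 2 were called higher by DESeq2, GDF15 (0.9 ± 0.19) and FAS (1.43 ± 0.25), and 0 lower, beside the same 11.0 and 1.84% of all genes tested. With the replicate block both tools also called 3 of them lower, BBC3 (−0.36), SESN1 (−0.4) and TP53I3 (−0.54), beside 6.61% of all genes by DESeq2 and 5.5% by edgeR. Of these 3 only TP53I3 was still called by DESeq2 once GC content and length were also corrected.

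**Figure D5:**
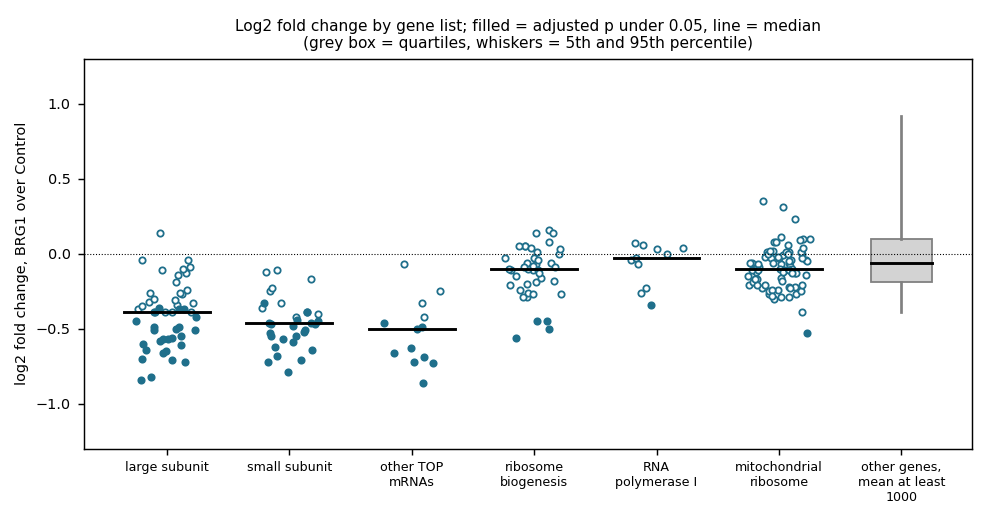
Log2 fold change (BRG1 over Control, DESeq2) of each gene of 6 lists, filled where the adjusted p is under 0.05, with the median as a line, beside the quartiles and the 5th and 95th percentiles of the other genes with a mean of at least 1000. The medians of the large subunit (−0.39), the small subunit (−0.47) and the other TOP mRNAs (−0.5) lie below those of biogenesis (−0.1), RNA polymerase I (−0.03) and mitochondrial ribosome genes (−0.1).

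On other scalings the direction was the same. The median log2 fold change of members was −0.45 with TMM factors, −0.44 with size factors computed without the members and −0.38 with total counts, under which 39 members were called lower by DESeq2.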

How the data were processed

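RNA-seq of 3 Control and 3 BRG1 samples of COV434 was analysed from 1 table of gene-level estimated counts deposited by the authors. Per the study's methods and the submitters' processing notes, the authors checked reads with FastQC 0.11.5, aligned with STAR 2.5.3a, quantified with Salmon 0.8.2 on hg38 and summarised transcripts to genes as length-scaled TPM, which adjusts for the average transcript length of a gene while library size remains in the values. These estimated counts were rounded here. DESeq2 1.42.0 (Wald test, median-ratio size factors, Benjamini-Hochberg over all genes, threshold 0.05, unshrunken fold changes) was the main test, after the study, and edgeR 4.0.16 (quasi-likelihood, TMM, at least 10 counts in at least 3 samples) stands beside it. Both were tested on simulated data, where DESeq2 called more unchanged genes than its threshold allows and edgeR found fewer of the true changes than DESeq2. The simulated samples were drawn independently, without the pairing by number described below, so these error rates need not hold for the data. Normalised counts are counts divided by size factors.

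Deviations from the group mean of samples with the same number correlated at 0.522, 0.524 and 0.614 over 11686 genes, and across numbers at −0.523 to 0.0734, so the numbers pair the samples and block fits are given. The members and gene lists were chosen with earlier results of these data known. Named members are the 6 lowest and 6 highest fold changes, the 3 largest and 3 smallest standard errors, the 3 smallest p of each subunit, paralog pairs with a mean of at least 10, the 5 matches on each side of the limit, members not called, of each list up to 3 genes of smallest p, and SMARCA4. RPL11, RPLP1, RPLP2, RPL9, RPL24, RPS7, EEF1A1, WDR12, BBC3, SESN1, TP53I3, MLST8, MYC, MTOR, LARP1 and PABPC1 were added as partners or for their role after values were seen. A few genes are counted but not reported here by name, and the summed blood marker list, which holds such a gene, is not reported here. Gene positions, lengths and GC content are from GENCODE 44, which matched 19089 of 19899 symbols, and start windows are from RefSeq. Estimated counts carry no counting interval, and totals of 29699741 to 63613710 leave the spread between samples as the main error.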

Additional observations from a re-analysis of the deposited data

How the results depend on the processing

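The direction of the median member (−0.43) was the same under each of the 15 alternatives run for it, from −0.53 to −0.38. The number of members called lower (49) lay between 35 and 67 under the alternatives other than leaving out a sample. Leaving out 1 sample at a time gave 27 to 60 of all members; in the large subunit 13 (without Control replicate 2 or BRG1 replicate 2) to 36 (without BRG1 replicate 3), and in the small subunit 14 (without Control replicate 2) to 24 (without BRG1 replicate 3). These fits have fewer samples. The adjusted p limit of 0.01 left 35. The replicate block gave 67 with DESeq2 and 58 with edgeR. Over 32 members that the text gives values for, 512 alternative values were computed: 454 kept their direction and side of the threshold, 37 lost the call, 11 gained it and 10 changed sign, with no call on either side of the change. Those 10 were RPL22L1 (0.02 with total counts, 0.25 when corrected for GC content and length, 0.27 when the replicate block was added, 0.15 without Control replicate 2, 0.04 without BRG1 replicate 1), RPL23A (0.21 without Control replicate 1, 0.07 without BRG1 replicate 3), RPL28 (0.09 and 0.07 without the same samples) and RPS9 (0.13 without BRG1 replicate 1). Over all fits without 1 sample, RPL22L1 ran from −0.18 to 0.15, RPL23A from −0.25 to 0.21, RPL28 from −0.12 to 0.09 and RPS9 from −0.33 to 0.13. Over 24 other genes of the lists, 321 of 384 values kept direction and side, 40 lost the call, 11 gained it and 12 changed sign: PABPC1 (−0.24 to 0.04 without 1 sample), NSA2 (0.1 when corrected for GC content and length, 0.09 when the block was added, neither called), MTOR (−0.19 in each of these, −0.05 to 0.16 without 1 sample) and LARP1 (−0.25 in each of these, called in the latter, −0.01 with TMM factors, −0.02 to 0.06 without 1 sample, and −0.01 without Control replicate 1). The cause was not tested. The gap between subunits stayed at 0.05 to 0.09. The members' counts are high, so that the 3 samples a group limit the precision more than depth does; the part of reads shared among copies was not tested.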
